A study of Mus musculus with 12 samples.

Results

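The comparison described here is that of FoxA2-middle cells carrying wild-type FoxA2 with FoxA2-middle cells carrying a FoxA2 that lacks an alpha helix. Its members are the open chromatin regions, called peaks, of 2 lists: 44539 peaks in the wild type (WT Middle) and 37611 in the helix mutant (dHx Middle), 82150 of the 249098 peaks in the 6 lists of the series. Lines with the same chromosome, start and end were taken as 1 peak with its highest score, the 19 autosomes were kept, and a peak was called shared when at least 1 bp of it lay in a peak of the other list. A peak without such a partner is called WT-only or dHx-only.

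Accessibility was measured by ATAC-seq, which uses a transposase to cut and tag open DNA, in mouse embryos of embryonic day 7.5. All embryos of both groups were homozygous for a knock-in FoxA2 allele that ends in a flexible linker and the red fluorescent protein tagRFP, on a mixed C57Bl6/J x CD-1 background. In the WT group (FoxA2-WT-tagRFP) the protein was otherwise intact, and in the dHx group the same allele lacked 10 amino acids of the helix. The extraembryonic part had been cut away, embryos were not sexed, about 10 were dissociated for a sort, and 2000 to 5000 cells went into a library. The Middle gate held cells above the autofluorescence of untagged cells and up to the strongest signal of heterozygous cells. The High gate lay above that signal, and the Negative gate held cells without tagRFP. These gates read the amount of the tagged protein itself, so cells of 1 gate need not be 1 cell type. Middle samples made up 4 of the 12 samples, 2 per genotype, and 1 pooled peak list per genotype was used, so there was no spread between replicates and no test between the genotypes. Intervals below are exact Clopper-Pearson 95% intervals that cover counting error only. A region open in fewer cells and a region less open in each cell cannot be told apart in such lists.

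FoxA2 belongs to the forkhead transcription factors and to the so-called pioneer factors, which bind their sites on nucleosomes and help to open chromatin. In the gastrulating embryo it marks the anterior primitive streak and its descendants, the definitive endoderm, node and notochord, and it is also active in the visceral endoderm, which is partly displaced by and mixed with definitive endoderm at this stage. Forkhead proteins read a core of the form TGTTT, or AAACA on the other strand. The question posed by the study design was whether the helix, described there as needed for the activation of target genes, changes accessibility.

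The promoters below are examples from the listed genes, and some of their peaks were weak. They are the 250 bases before the start of transcription from a RefSeq promoter table (GRCm38.p6, the same assembly as mm10), printed 5′ to 3′ on the strand of the gene. Capitals mark the letters TGTTT or AAACA. The Foxa2 promoter (chr2:148046970-148047219, minus strand) had a peak in both Middle lists. Those of Afp (chr5:90490464-90490713, plus), Apoa1 (chr9:46228380-46228629, plus) and Rplp0 (chr5:115559217-115559466, plus) had one in WT Middle and not in dHx Middle. By score these peaks ranked 37930, 21656 and 2703 of the 44539 in WT Middle. Within 10 kb of Apoa1 there were 4 peaks in WT Middle and 5 in dHx Middle. Both promoters of Hnf4a (chr2:163506607-163506856 and chr2:163546905-163547154, plus) had one in dHx Middle and not in WT Middle. These genes were chosen for printing after their values were seen.
Foxa2: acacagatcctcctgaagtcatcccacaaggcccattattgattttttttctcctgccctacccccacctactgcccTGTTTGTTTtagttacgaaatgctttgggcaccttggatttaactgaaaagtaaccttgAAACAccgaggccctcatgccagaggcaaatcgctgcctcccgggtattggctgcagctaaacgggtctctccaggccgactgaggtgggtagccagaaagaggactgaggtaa
Afp: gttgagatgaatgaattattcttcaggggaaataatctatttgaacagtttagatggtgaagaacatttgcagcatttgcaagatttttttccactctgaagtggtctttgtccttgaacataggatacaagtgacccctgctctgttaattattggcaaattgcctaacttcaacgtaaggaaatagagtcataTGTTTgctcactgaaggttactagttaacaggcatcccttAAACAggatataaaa
Apoa1: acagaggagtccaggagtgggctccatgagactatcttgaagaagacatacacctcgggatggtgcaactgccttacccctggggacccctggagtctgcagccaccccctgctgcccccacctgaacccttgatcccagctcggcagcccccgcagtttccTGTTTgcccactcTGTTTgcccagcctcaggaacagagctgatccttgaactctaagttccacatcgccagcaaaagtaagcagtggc
Rplp0: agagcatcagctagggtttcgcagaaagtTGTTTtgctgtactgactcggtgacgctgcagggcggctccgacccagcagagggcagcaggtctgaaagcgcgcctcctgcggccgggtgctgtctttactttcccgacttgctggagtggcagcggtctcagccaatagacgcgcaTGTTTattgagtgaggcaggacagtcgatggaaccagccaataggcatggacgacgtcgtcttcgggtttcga
Hnf4a, first promoter: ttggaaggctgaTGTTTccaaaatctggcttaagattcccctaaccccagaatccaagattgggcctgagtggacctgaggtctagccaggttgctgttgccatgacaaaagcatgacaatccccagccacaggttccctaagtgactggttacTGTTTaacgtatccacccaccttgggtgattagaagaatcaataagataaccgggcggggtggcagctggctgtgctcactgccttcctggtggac
Hnf4a, second promoter: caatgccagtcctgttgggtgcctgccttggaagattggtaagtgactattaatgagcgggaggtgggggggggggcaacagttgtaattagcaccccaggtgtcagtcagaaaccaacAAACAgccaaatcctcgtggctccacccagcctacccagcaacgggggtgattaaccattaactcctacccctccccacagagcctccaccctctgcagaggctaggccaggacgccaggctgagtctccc
The core letters stood 3 times in the Foxa2 sequence, overlaps counted, 2 times each in those of Afp, Apoa1, Rplp0 and the first Hnf4a promoter, and 1 time in the second Hnf4a promoter. They stood in 46.3% of all 31396 autosomal promoter windows of this length, so their presence in a single promoter is common. By class, they stood in 29.5% (28.6% to 30.4%) of windows with a peak in both Middle lists, 40% (37.4% to 42.7%) of those with one in WT Middle alone, 34.8% (32.4% to 37.2%) of those with one in dHx Middle alone and 56.2% of those with neither. The classes also differed in G and C content, given further below, and the shares were not adjusted for it.

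The Middle populations opened a largely common set of strong regions and differed mainly in weak ones. In WT Middle 18232 of 44539 peaks, 40.9% (40.5% to 41.4%), had no dHx Middle partner. In dHx Middle 11624 of 37611 peaks, 30.9% (30.4% to 31.4%), had no WT Middle partner. Among the 20000 peaks with the highest score of each list, matched against all peaks of the other genotype, 3716 or 18.6% (18.0% to 19.1%) were WT-only and 2517 or 12.6% (12.1% to 13.1%) were dHx-only. Among the top 5000 the counts were 413 (8.26%) and 93 (1.86%), and among the top 1000 they were 53 (5.3%) and 13 (1.3%). The score at the 20000th place was 8.45 in WT Middle and 6.40 in dHx Middle, where the score is the authors' −log10 significance value and is used here only to rank peaks inside a list.

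**Figure D1:**
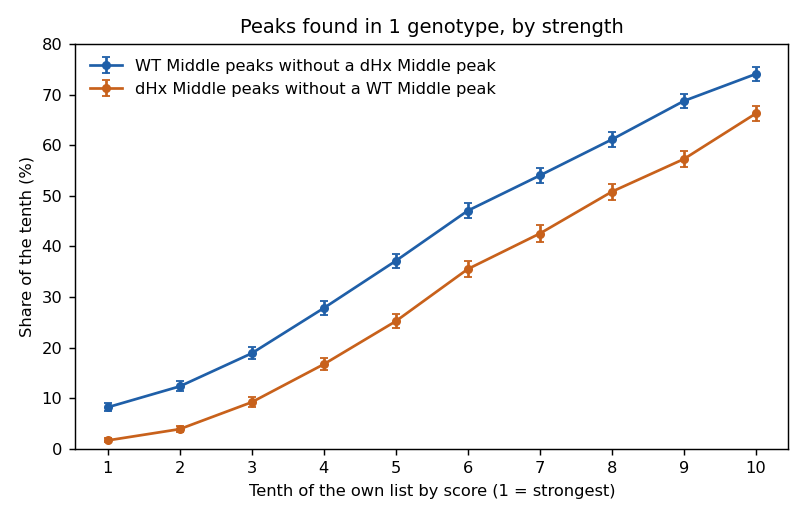
Share of peaks without a partner in the other genotype (vertical axis, percent) in 10 equal classes of the own list, from the strongest to the weakest by score (horizontal axis); bars are 95% Clopper-Pearson intervals. The share goes from 8.19% to 74.1% in WT Middle and from 1.65% to 66.3% in dHx Middle, with WT Middle above dHx Middle in every class.

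The list with the greater share of its own peaks was the one with the higher background at every RFP level. The background, in mean pileup per base, was fitted from the steps between the lowest scores and was 1.50 (range 1.43 to 1.56) in WT Middle and 0.786 (0.744 to 0.828) in dHx Middle, a ratio of 1.90. At High the ratio of WT to dHx was 1.85 and the WT-only share exceeded the dHx-only share by 12.2 percentage points. At Middle it did so by 10.0 points. At Negative the ratio was 0.691 and the difference in whole lists was -14.7 points. Genotype and this measure of depth cannot be told apart in 3 pairs of lists. With both Middle lists limited to their 37611 strongest peaks the shares were 35.0% and 35.4%, so the order of the whole-list shares did not hold there. It was also the other way round, 34.1% WT-only and 36.1% dHx-only, with both lists limited to the same lowest fold over background. The order among the top 20000 was kept, by a smaller difference, when they were sought in lists of equal length, with 18.6% WT-only and 15.2% dHx-only, and in lists of the same lowest fold, with 18.6% and 15.9%. Both settings were chosen after seeing the data. Among strong peaks defined by fold, at least 2 times the lowest fold of the other list, the order was the reverse, 14.5% WT-only and 17.3% dHx-only.

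Genotype-only peaks were shorter than shared ones among the top 20000, but not among the strongest of WT Middle. In the top 20000 the median length was 394 bp for WT-only and 545 bp for shared WT Middle peaks, and 387 bp for dHx-only and 605 bp for shared dHx Middle peaks. In the top 5000 it was 756 bp for WT-only and 709 bp for shared WT Middle peaks, and 572 bp for dHx-only and 785 bp for shared dHx Middle peaks. The shortest peak measured 181 bp in WT Middle and 211 bp in dHx Middle, and 40263 of the 44539 WT Middle peaks were of that length or more. Some narrow ones are very strong. A WT-only peak of 188 bp inside Flt1, which encodes a receptor for vascular endothelial growth factor (chr5:147611439-147611626), had a score of 924 and rank 9 in WT Middle. It was also in both Negative lists. Peaks of under 230 bp made up 5.57% of WT-only and 0.262% of shared peaks in the WT Middle top 5000.

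Promoters were largely shared and distal regions carried most of the difference. On the autosomes other than chromosome 18, for which no start positions were at hand, 38.2% (37.4% to 38.9%) of the shared top 20000 WT Middle peaks lay within 1 kb of a transcription start, against 8.78% (7.88% to 9.75%) of the WT-only ones. In dHx Middle the figures were 38.0% for shared and 14.5% (13.1% to 15.9%) for dHx-only peaks. Read the other way, 4.97% of the top WT Middle peaks near a start were WT-only, against 24.7% of those inside genes, 24.5% of those outside genes within 100 kb and 29.3% of those farther away. For dHx-only the shares were 5.22%, 15.7%, 16.9% and 20.1%. In the top 20000 the WT-only share was thus the larger in each class away from starts, while near starts the intervals overlapped, 4.45% to 5.53% and 4.71% to 5.78%. In the whole lists the share near starts was 17.9% WT-only and 16.4% dHx-only. In the top 5000, 8 of 2004 WT Middle peaks near a start were WT-only (0.399%) and 3 of 2238 dHx Middle peaks were dHx-only (0.134%).

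The shares found at the other RFP levels differed between WT-only and dHx-only regions, without separating them. Of the 3716 WT-only top peaks, 47.2% (45.6% to 48.8%) were also peaks of WT Negative and 54.4% (52.8% to 56.0%) of dHx Negative, against 43.2% in WT High and 28.2% in dHx High. Of the 2517 dHx-only top peaks, 30.2% (28.4% to 32.0%) were in WT Negative and 40.8% (38.8% to 42.7%) in dHx Negative, against 51.5% in WT High and 43.4% in dHx High. Shared Middle peaks were found far more often, in 74.3% to 86.0% for each list. In none of the 4 other lists were 921 WT-only peaks (24.8%) and 594 dHx-only peaks (23.6%). In all 4 were 438 (11.8%) and 316 (12.6%). In the top 5000 the WT-only share was the larger in both Negative lists and also in WT High, 56.2% against 52.7% of 93 dHx-only peaks. In dHx High it was the smaller, 32.0% against 38.7%. The 4 lists differ in background, and its part in these shares was not tested.

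**Figure D2:**
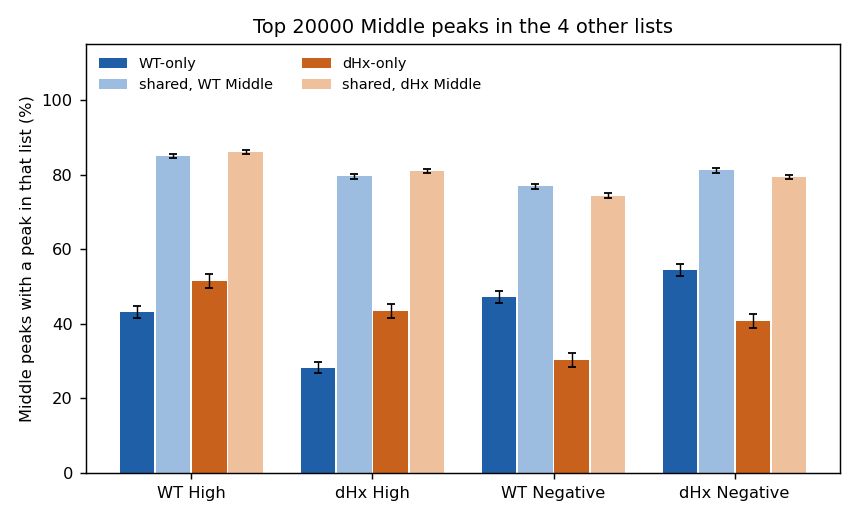
Share of the top 20000 Middle peaks (vertical axis, percent) that also had a peak in each of the 4 other lists, for WT-only, dHx-only and shared peaks; bars carry 95% Clopper-Pearson intervals. WT-only peaks were found in Negative lists more often than dHx-only peaks were, and dHx-only peaks in High lists more often than WT-only peaks were.

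The same contrast stood out where both genotypes gave the same answer at the other levels, a pattern picked after the values were seen. Peaks in both Negative lists and neither High list made up 350 of the WT-only top peaks, 9.42% (8.50% to 10.4%), and 97 of the dHx-only ones, 3.85% (3.14% to 4.68%). Peaks in both High lists and neither Negative list made up 121 of the WT-only peaks, 3.26% (2.71% to 3.88%), and 316 of the dHx-only ones, 12.6% (11.3% to 13.9%). Shared top peaks had 2.80% and 6.47% in WT Middle, and 2.37% and 8.25% in dHx Middle, for the Negative and the High pattern. In the top 20000 the dHx-only peaks thus leaned the way shared peaks do and the WT-only peaks the other way. In the top 5000 of WT Middle, 3 WT-only peaks had the High and 50 the Negative pattern, and of the shared ones 111 (2.42%) had the High and 126 (2.75%) the Negative pattern. Among the 93 dHx-only peaks of the top 5000 the numbers were 4 with the High and 6 with the Negative pattern, so the leaning was not seen in the strongest ones.

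Few of these peaks lay near listed genes, but the 10 lists hold only 265 distinct genes, beside 20661 autosomal protein-coding genes. Whether these peaks lay near listed genes more or less often than all peaks was not tested. The counts are thus no result about the listed genes, which are named as examples. Of the 273 dHx-only peaks with the High pattern that had a gene within 100 kb, 6 lay nearest to a listed gene: Foxa2, Foxa3, a related forkhead factor of endoderm and liver, Cdh1, which encodes the epithelial adhesion protein E-cadherin, Sytl2, Sox4 and Nr5a2. The Foxa3 peak (chr7:19020571-19020873) lay inside the gene and ranked 11623 in dHx Middle. Of the 305 WT-only peaks with the Negative pattern 8 lay nearest to a listed gene, namely Cpm, Grhl2, Gsc, Axin2, Msx1, Flt1, Epha2 and Irx3. Gsc encodes a homeobox factor of the anterior streak and Axin2 an inhibitor and known target of Wnt signalling. A WT-only peak inside Cpm, which encodes a membrane carboxypeptidase (chr10:117636549-117637213), ranked 5663 in WT Middle.

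A genotype difference that recurred at High was more frequent than the reverse for WT-only peaks and less frequent for dHx-only peaks. Of the WT-only top peaks 869 (23.4%) were in WT High and not in dHx High, and 314 (8.45%) the reverse. Shared WT Middle peaks had 9.94% and 4.45%. Of the dHx-only top peaks 295 (11.7%) were in dHx High and not in WT High, and 498 (19.8%) the reverse, beside 4.66% and 9.64% of shared dHx Middle peaks. WT High has the higher background of the High pair, and peaks in WT High alone of the pair were the more numerous in the dHx-only and in both shared classes too. In the WT-only top 5000, 99 of 413 peaks (24.0%) were in every list except dHx High and dHx Middle, the 2 lists with the lowest background, and what part depth has in these was not tested.

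Regions that differed the same way at High and stood in neither Negative list were few: 157 WT-only (4.22%) and 136 dHx-only peaks (5.40%), beside 2.07% and 1.41% of shared peaks. The strongest WT-only ones lay inside Sgk1, which encodes a kinase induced by serum and glucocorticoids (chr10:21912736-21913049, rank 1401), 27.0 kb from Tln2, which encodes a talin (chr9:67661006-67662125, rank 2437), and, after others at ranks 2828 and 3670 with no gene within 100 kb, inside Dclk1 and Tbc1d9. The strongest dHx-only ones lay inside Ano2, which encodes a chloride channel (chr6:125876913-125877242, rank 3642), at Frmd4b (chr6:97618502-97619104, rank 4383), 46.4 kb from Morc2a (rank 5489) and inside Psg20 (rank 5909), a member of a repeated gene family.

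The Foxa2 locus itself stayed open in both genotypes. Within 100 kb, 19 WT Middle and 20 dHx Middle peaks were nearest to Foxa2, of which 3 and 4 were genotype-only. In both Middle lists a peak lay over the start of the gene (chr2:148045600-148047046 in WT Middle, rank 5863, and chr2:148045537-148047071 in dHx Middle, rank 3246). This region held a peak in all 6 lists. In the Negative lists that peak did not reach the start, its nearest edge lying 0.075 kb downstream in WT and 0.014 kb in dHx. None of the 3 WT-only peaks was in the top 20000, with a best rank of 25730. All 4 dHx-only peaks were, with a best rank of 9924 for chr2:147992134-147992399, 50.5 kb from the gene body and present in both High lists and neither Negative list.

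**Figure D3:**
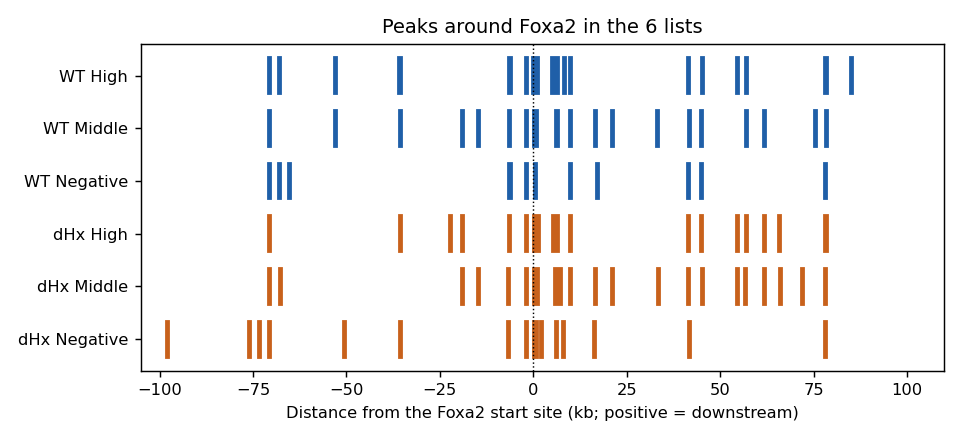
Peaks within 100 kb of Foxa2 by distance from its start site (horizontal axis, kb, positive values downstream) in the 6 lists, 1 row per list; peaks under 0.8 kb are drawn 0.8 kb wide. Both Middle rows show a peak at the start site and further peaks on either side of it.

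Peaks within 10 kb of marker loci of cell types were counted, since RNA was not used here. They do not settle the identity of the sorted cells, because all 6 endoderm loci also had peaks in both Negative lists. Foxa2 had 4 in WT Negative and 6 in dHx Negative beside 5 in each Middle list, and Krt18 had 2 and 2 beside 3 and 5. Noto had 0 in WT Negative and 2 in dHx Negative. All 6 endoderm loci (Foxa2, Sox17, Cer1, Epcam, Krt8 and Krt18) had peaks in both Middle lists, 17 in WT and 22 in dHx. All 4 node and notochord loci (Noto, T, Shh and Foxj1) had them too, 7 and 8. All 5 visceral endoderm loci (Afp, Apoa1, Apob, Amn and Cubn) had 22 in WT Middle and 15 in dHx Middle. Mesoderm loci had peaks at 3 of 4 in WT Middle and 2 of 4 in dHx Middle, with 7 and 6 peaks and Hand1 at 0 in both. Blood and endothelial loci had peaks at 2 of 3 and 3 of 3, with 4 and 6 peaks and Tal1 at 0 in WT Middle and 3 in dHx Middle. Epiblast and neural loci had 4 and 8 peaks, with Sox2 at 0 in WT Middle and 2 in dHx Middle. Extraembryonic loci had 2 and 2, with Elf5 at 0 in both. What part such differences in the sorted cells have in the results was not tested.

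Of the peaks near definitive endoderm genes a smaller share was WT-only than of the peaks near all genes, and the share near ubiquitously used promoters was nearly as low. Over all 15718 autosomal genes with a peak assigned within 100 kb, 5794 or 36.9% had more WT-only than dHx-only peaks and 3538 or 22.5% the reverse, and 39.9% of WT Middle and 30.1% of dHx Middle peaks were genotype-only. Near the 39 definitive endoderm genes 58 of 216 WT Middle peaks, 26.9% (21.1% to 33.3%), were WT-only, and 58 of 211 dHx Middle peaks, 27.5% (21.6% to 34.0%), were dHx-only. More dHx-only peaks stood at 20 of these genes (51.3%) and more WT-only peaks at 11 (28.2%). The WT-only interval lies below the share for all genes, while the dHx-only interval includes it. Near the genes of the ubiquitous promoter list 20 of 70 WT Middle peaks, 28.6% (18.4% to 40.6%), were WT-only, and the shares of most other lists also lay under 39.9%. No test compared the lists. These are descriptions of 2 lists, and genes with many peaks, as here, are tied less often.

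Most definitive endoderm genes named here were chosen as extremes in both directions, so their opposite leanings are not a result about the list. Gata4, a zinc finger regulator of endoderm and heart, had 0 WT-only of 5 and 5 dHx-only of 10 peaks, whereas its relative Gata6 had 5 WT-only of 7 and 0 dHx-only of 2. Krt18, which encodes an epithelial keratin, had 0 of 5 and 3 of 7, and its promoter was a peak in dHx Middle and both High lists but not in WT Middle. Emb, which encodes a cell surface glycoprotein, leaned the other way with 7 WT-only of 18 and 1 dHx-only of 11, and so did Cpm with 5 of 9 and 1 of 5. Sox17, a Sox factor needed for definitive endoderm, had 3 of 9 and 2 of 8. Except at Cpm, none of the WT-only peaks of these genes was in the top 20000. None of the dHx-only peaks of Gata4, Krt18, Emb and Cpm was either, with best ranks of 24085 at Gata4 and 24271 at Krt18.

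Node, notochord and midline genes had more dHx-only peaks. Near the 32 genes 41 of 128 WT Middle peaks (32.0%, 24.1% to 40.9%) were WT-only and 54 of 141 dHx Middle peaks (38.3%, 30.2% to 46.9%) were dHx-only. Of these genes 15 (46.9%) leaned to dHx and 7 (21.9%) to WT, beside 22.5% and 36.9% of all genes. The dHx-only interval begins just above the 30.1% of all genes and the WT-only interval includes the 39.9%. In the top 20000 the numbers were 6 of 62 (9.68%) and 15 of 80 (18.8%), beside 17.7% and 12.0% for all genes. Cyp26a1, which encodes an enzyme that breaks down retinoic acid, had 1 WT-only of 4 and 6 dHx-only of 9 peaks. Lefty1, which encodes a midline antagonist of Nodal, had 0 of 1 and 2 of 3, both dHx-only peaks in the top 20000. Dnah11, which encodes a dynein heavy chain of the motile cilia of the node, had 5 of 13 and 0 of 8. Shh, which encodes the Hedgehog ligand of notochord, had 0 of 3 and 1 of 4. T, the Brachyury factor of streak and notochord, had a promoter peak in all 6 lists, with rank 28241 in WT Middle and 28726 in dHx Middle. That peak is counted under a gene model that overlaps its start, and the single WT-only peak counted under T had rank 36194.

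Visceral endoderm genes leaned to WT by number of genes. Near 23 genes with a peak 38 of 106 WT Middle peaks (35.8%, 26.8% to 45.7%) were WT-only and 28 of 95 dHx Middle peaks (29.5%, 20.6% to 39.7%) were dHx-only, and both intervals include the shares for all genes. More WT-only peaks stood at 13 genes (56.5%) and more dHx-only peaks at 5 (21.7%), beside 36.9% and 22.5% of all genes. Apob, which encodes the main protein of chylomicrons and low-density lipoprotein, had 5 WT-only of 8 and 2 dHx-only of 5. Within 10 kb of it there were 5 peaks in WT Middle, 1 in dHx Middle and 0 in each of the 4 other lists. Lamb1, which encodes a laminin chain of basement membrane, had 4 of 9 and 1 of 6. Cubn, which encodes the uptake receptor cubilin, had 3 of 5 and 2 of 4, and its strongest WT-only peak (chr2:13377710-13377991, rank 7831) was in no other list. Hnf4a, a nuclear receptor of visceral endoderm and liver, went the other way with 0 of 5 and 2 of 7, and so did Lama1 with 1 of 5 and 3 of 7. The genes named here were chosen as extremes in both directions.

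**Figure D4:**
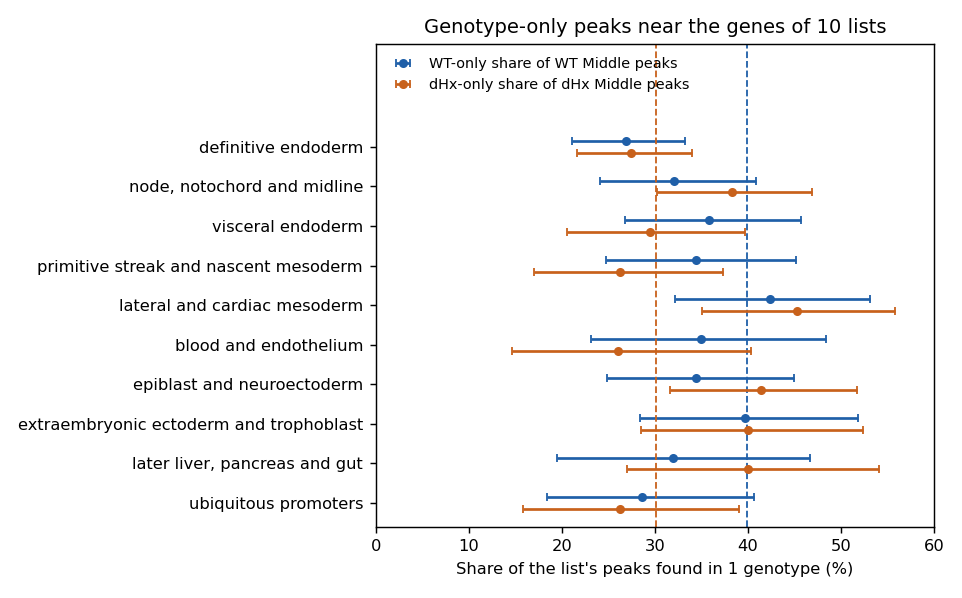
Share of WT Middle peaks that were WT-only and of dHx Middle peaks that were dHx-only (horizontal axis, percent) for peaks nearest to the genes of 10 lists, with 95% Clopper-Pearson intervals; dashed lines give all genes, 39.9% and 30.1%. The interval of the WT-only share of definitive endoderm lies below its line.

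In the remaining 7 lists the interval of either share included the value for all genes, apart from lateral and cardiac mesoderm and epiblast and neuroectoderm, where the dHx-only intervals began above 30.1%. Near lateral and cardiac mesoderm genes 39 of 92 peaks were WT-only and 43 of 95, 45.3% (35.0% to 55.8%), dHx-only. Near epiblast and neuroectoderm genes 32 of 93 were WT-only and 41 of 99, 41.4% (31.6% to 51.8%), dHx-only. Pax2, a paired-box factor of neural and kidney primordia, had 1 WT-only of 2 and 6 dHx-only of 7 peaks, and Six3, a factor of the anterior neural plate, 1 of 2 and 4 of 5. Otx2, a factor of epiblast and anterior endoderm, had 3 of 7 and 0 of 4. Mef2c, a muscle and heart factor, had 0 of 1 and 4 of 5, and Tbx5, a heart and forelimb factor, had 3 of 3 and no dHx Middle peak.

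Streak, blood and later gut genes leaned both ways, and most of those named were chosen as extremes in both directions. Primitive streak and nascent mesoderm genes leaned to WT at 8 and to dHx at 7, with Axin2 at 9 WT-only of 13 and 2 dHx-only of 5, Pdgfra, which encodes a growth factor receptor of mesoderm, at 5 of 9 and 0 of 4, and Fgf8 at 0 of 1 and 3 of 4. Of 20 blood and endothelium genes with a peak 8 leaned to WT and 4 to dHx, 40% and 20%, close to the 36.9% and 22.5% of all genes. Runx1, a regulator of blood formation, had 7 of 12 and 2 of 7, and its strongest WT-only peak (chr16:92713848-92714814, rank 667) was also in WT High, WT Negative and dHx Negative. Gata2 had 3 of 4 and 0 of 1, while Tal1 had no WT Middle peak and 3 dHx-only. Of 23 later liver, pancreas and gut genes with a peak 9 leaned each way, 39.1% and 39.1%, beside 36.9% and 22.5% of all genes. Nr5a2 had 1 of 5 and 5 of 9, and Prox1 had 3 of 6 and 0 of 2. Extraembryonic ectoderm and trophoblast genes leaned to WT at 7 and to dHx at 6 of 19 (36.8% and 31.6%). Ubiquitously used promoters did so at 8 and 4 of 24 (33.3% and 16.7%).

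Promoter windows open in 1 Middle list were about as many in either genotype. Of 31396 RefSeq promoter windows, from 250 bases before to 50 after a start, 9566 (30.5%) had a peak in both Middle lists, 1337 (4.26%) in WT Middle alone of the pair and 1545 (4.92%) in dHx Middle alone. In 156 of the former and 359 of the latter the peak over the window overlapped a peak of the other list outside the window, and is shared by the rule used above. That left 1181 windows with a WT-only and 1186 with a dHx-only peak. Windows are called WT-only and dHx-only below by the window itself, with the shared peaks among them named for listed genes. Windows with a peak in both lists had a median of 62.7% G and C and 22.5 CpG pairs, WT-only windows 57.7% and 15, dHx-only windows 61.0% and 20, and windows with neither 48.3% and 4. The longer forkhead sites TGTTTAC or TATTTAC, on either strand, stood in 4.01% (3.63% to 4.43%) of windows with both, 4.94% (3.84% to 6.24%) of WT-only, 4.27% (3.32% to 5.40%) of dHx-only and 8.28% of windows with neither, beside 6.64% of all windows. The WT-only and dHx-only intervals of these longer sites overlap, while those of the core letters given above do not. Across the classes the share with the core letters rose as the median G and C content fell. The part of base composition in that difference was not tested. AGATAA, read by GATA factors, stood in 8.45% of WT-only and 6.99% of dHx-only windows, beside 11.2% of all, and ACAAAG, read by Sox factors, in 14.3% and 15.2%, beside 18.6%. No peak was searched for these letters outside promoters.

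For genes of the 10 lists 235 windows of 192 genes were matched, of which 82 had a peak in both lists, 21 in WT Middle alone of the pair and 30 in dHx Middle alone. The peak itself was shared at 3 of the 21 (Flt1, Sfrp5 and Snrpd3) and at 5 of the 30 (Cd34, Gata3, Ikzf1, Lyl1 and Zic5). Of the 21 WT-only windows 10 had a peak in all 4 other lists and 4 in none. Those 4 belonged to Afp, which encodes alpha-fetoprotein of visceral endoderm and liver, Serpina1a, which encodes a secreted protease inhibitor, Vil1, which encodes villin of the brush border, and Hes7, a segmentation clock repressor. The Serpina1a family has near-identical copies, so its window is uncertain. The peaks were weak, with ranks of 37930 at Afp, 30967 at Serpina1a, 25393 at Vil1 and 43185 at Hes7 of the 44539 in WT Middle. Apoa1, which encodes the main protein of high-density lipoprotein, had its window in WT Middle, rank 21656, and WT High. Of the 10 windows seen everywhere but in dHx Middle, that of Rplp0, a ribosomal protein gene, was the strongest, with rank 2703.

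Of the 30 dHx-only windows 8 had a peak in all 4 other lists and 5 in none. Those 5 were both windows of Hnf4a, with ranks of 14445 and 18887 of the 37611 in dHx Middle, and the windows of Rfx6, a factor of endoderm and pancreas, with rank 17532, of Pax2, with rank 33539, and of Dand5, which encodes a Nodal antagonist of the node, with rank 35576. The 8 seen everywhere but in WT Middle belonged to Cxcr4, Cyp26a1, Dnmt3b, Gata3, Gbx2, Hhip, Mnx1 and Rab7. Of these the strongest peak without a WT Middle partner was that of Rab7, which encodes a GTPase of late endosomes, with rank 17013. The Gata3 peak ranked 1946 and was shared with a WT Middle peak outside the window. Over all windows, 16.1% (14.2% to 18.2%) of the WT-only and 11.1% (9.55% to 12.7%) of the dHx-only ones had a peak in none of the 4 other lists, and 29.5% and 27.0% had one in all 4.

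**Figure D5:**
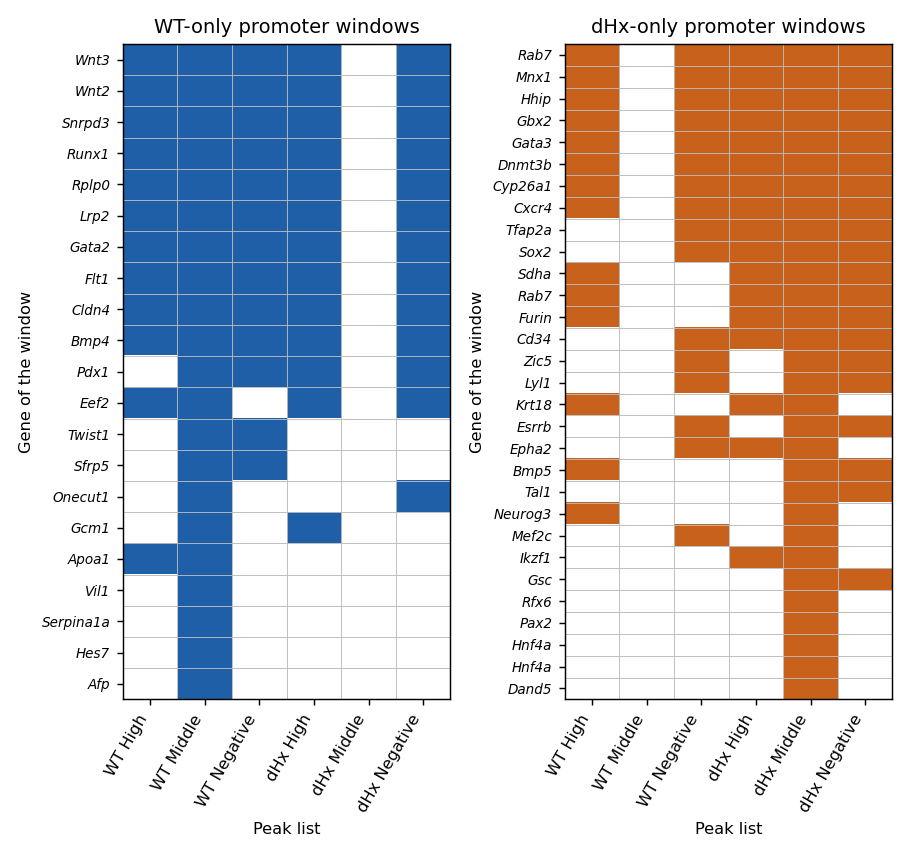
Presence (filled) or absence (white) of a peak at the 21 WT-only and 30 dHx-only promoter windows of listed genes, 1 row per window and 1 column per peak list. Rows at the top had a peak in all lists but 1, and rows at the bottom, among them Afp and both Hnf4a windows, in 1 Middle list only; at 3 and 5 of the windows the peak overlaps one of the other Middle list outside the window.

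Genome-wide, the genes with the greatest excess of WT-only peaks belong to repeated gene families. Zfp993 had 81 WT-only of 90 WT Middle peaks and 0 dHx-only of 9, Zfp980 60 of 65 and 3 of 8, and Zfp600 52 of 61 and 0 of 8, all zinc finger genes of a cluster on chromosome 4. Mup13, a major urinary protein gene, had 35 of 41 and 3 of 9. Reads from near-identical copies can be shared out among them, so these counts are uncertain. The greatest excess of dHx-only peaks was at Shroom3, which encodes an actin-binding protein of apical constriction, with 1 WT-only of 11 and 10 dHx-only of 20, Nalcn, which encodes a sodium leak channel, with 1 of 2 and 9 of 10, and Lrch1 with 0 of 1 and 7 of 8. By chromosome, the dHx-only share of the top 20000 ran from 8.79% on chromosome 11 to 18.9% on chromosome 2, and the WT-only share from 15.8% on chromosome 19 to 22.4% on chromosome 4.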

How the data were processed

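Peak lists of 6 groups (WT and dHx at High, Middle and Negative tagRFP) on mm10 were used, each called Pooled in the deposited peak names. Those names do not say how many samples were pooled, and the series holds 2 per group. The 2 dHx Middle samples are titled Rep 2 and Rep 3. STAR 2.5.2a and MACS2 were used, per the submitters' processing notes, with roles and settings not given in the sources used here. By its values, the deposited score is a −log10 significance, from p or q, which is not stated. Read depth is also not given in these sources. The members and gene lists were chosen with earlier results of these data known.

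Lines of the same interval were merged, autosomes kept and overlaps of at least 1 bp counted in Python 3.11.15 with NumPy 2.4.6, pandas 2.3.3 and SciPy 1.17.1 (figures in Matplotlib 3.10.9), checked on simulated lists. The background of each list was fitted to its 40 lowest distinct scores as a Poisson tail, with its range at 1 pileup step lower or higher. Peaks were assigned to the nearest of 20661 autosomal protein-coding RefSeq genes (GRCm38.p6) within 100 kb, distance being measured to the gene body. Dense bins are the 12 bins of 1 Mb with at least 231 peaks. The planned motif windows at peak centres were replaced by promoters, since no genome sequence was used here. With 1 list per group no test was run. Named genes were Foxa2, then in each list up to 2 members with the best ranked and up to 2 with the most WT-only or dHx-only peaks net, and genome-wide the highest peaks and the 6 largest and 6 smallest net counts, left out in dense bins; genes named beyond this rule (the promoter windows, Sox17, Lefty1, T, Shh and the level patterns) were chosen after their values were seen. Chromosomes X and Y were left out.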

Additional observations from a re-analysis of the deposited data

Results flagged for a closer look

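The genotype difference went in opposite directions at 2 RFP levels. The WT-only share of the whole WT list minus the dHx-only share of the whole dHx list was 10.0 percentage points at Middle and -14.7 points at Negative. The difference between the levels was not tested, since each level has 1 list per genotype, and the background ratio of WT to dHx was 1.90 at Middle and 0.691 at Negative.

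Chromosome X, which the comparison leaves out, held 8.66% of all WT Middle peaks (4222 peaks) against 3.86% of dHx Middle (1510) and 2.85% to 4.32% of the 4 other lists. Of the WT Middle peaks on X, 3185 (75.4%) had no dHx Middle partner, and 31.1% lay in the 5 fullest bins of 1 Mb. The embryos were not sexed, and the sex of the cells in each list was not tested.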

How the results depend on the processing

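No paired analysis was possible because each group is 1 list pooled over its samples, and no run without a replicate was made for the same reason. The lists give no read depth, and the share without a partner was highest among the weakest peaks.

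Shares are given as WT-only, then dHx-only. With at least 50% of the shorter peak overlapped they were 42.9% and 33.0% of the whole lists and 19.4% and 13.4% of the top 20000. With peaks within 500 bp taken as shared they were 38.3%, 28.7%, 17.9% and 12.1%. With X and Y added the whole-list WT-only share was 43.9% and the top dHx-only share 12.0%. Without dense bins the whole-list WT-only share was 40.3%. With scores of at least 5 in both lists the 4 shares were 37.7%, 28.6%, 27.0% and 21.8%. Lists of equal length gave 35.0% and 35.4%, a difference of -0.348 points, which is the reverse of the main order. The same lowest fold over background gave 34.1% and 36.1%, a difference of -2.04 points, also reversed. The top 10000 gave 10.8% and 4.22%, and the top 30000 gave 28.4% and 23.1%. The remaining values of these 4 shares under these settings, the added ones below aside, stayed within the main intervals.

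Chosen after seeing the data, a fold of at least 2 times the lowest of the other list gave 14.5% and 17.3%, a difference of -2.85 points, reversed. Also added, seeking the top peaks in lists of equal length gave 15.2% for the top dHx-only share and a difference of 3.34 points, and in lists of the same lowest fold 15.9% and 2.72 points. Leaving out peaks under 211 bp gave 37.8% and 34.0% of the whole lists, 3.79 points apart, with 15.0% for the top dHx-only share and 3.11 points between the top shares.

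Genes with more WT-only minus genes with more dHx-only peaks, -9.0 for definitive endoderm, -8.0 for node and 8.0 for visceral endoderm, kept their signs. With a limit of 20 kb they were -5.0 for node and 5.0 for visceral endoderm. With every gene within 100 kb they were -3.0 for definitive endoderm and -1.0 for node, and epiblast and neuroectoderm turned from -2.0 to 1.0. With top 20000 peaks alone they were -1.0 for definitive endoderm and -4.0 for node. The recurrence of WT-only peaks at High minus its reverse was 9.54 points for the whole list and 14.9 for the top 20000. The High minus the Negative pattern was -6.16 points for WT-only top peaks, -3.47 for the whole list and -11.4 for the top 5000, and for dHx-only peaks it was 8.7, 4.59 and, reversed, -2.15. The cause of these shifts was not tested. Motif windows at peak centres were not run.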
